A study of Mus musculus with 2 samples.

Results

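The Krüppel-like factors (Klf) are zinc finger transcription factors, and 10 of them, Klf2, Klf3, Klf4, Klf5, Klf6, Klf7, Klf9, Klf10, Klf13 and Klf15, were examined here. They were chosen by name from the 19144 genes of a Drop-seq count table, and all 10 were present. The cells came from primary neurospheres, floating colonies grown for 7 to 10 days from the dissociated walls of the lateral ventricles of CD1 mouse embryos. The serum-free medium contained LIF (leukemia inhibitory factor, 10 ng/mL), a cytokine on which primitive neural stem cells depend. A further component of the medium is written EFH and left unexplained. The labels list 2 samples of this single group, both of genotype CD1, and name no transgene and no untreated or differently treated control. No source used here gives the embryonic age or the number of embryos. The count table does not say which sample a barcode came from, so it was treated as 1 sample. Cells are not replicates, and no test or p-value was computed. Every interval below is a 95% interval for counting error only, and it says nothing about the spread between cultures.

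Klf proteins share a DNA-binding end of zinc fingers that reads CACCC and GC-rich boxes, and they differ in the rest of the protein, which recruits activators or repressors. Klf2, Klf4 and Klf5 are known from embryonic stem cells, where they hold up the pluripotent state beside Oct4, Sox2 and Nanog. In those cells Klf4 acts downstream of LIF and the transcription factor STAT3. Other members are known as early responders to growth factors and injury, as regulators of neurite growth and hormone responses, and as repressors that dampen transcription through corepressor complexes. Genes that are switched on within minutes of a growth factor or of tissue dissociation, without new protein synthesis, are called immediate early genes, and several Klf genes respond in a similar way.

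Counted as cells were the 3765 barcodes in which 500 or more genes were detected and mitochondrial counts made up 10% or less. They held 17395968 unique molecular identifiers (UMIs, each 1 counted RNA molecule), with a median of 3869 and a range of 638 to 54060 per cell. Markers of neural progenitors were abundant as a sum, at 14132 UMIs per 1000000 UMIs (CPM), led by Fabp7 at 7166 CPM and Vim at 3522 CPM. All 14 listed genes were above 50 UMIs, but some were scarce, such as Prom1 at 7.42 CPM and Hopx at 3.10 CPM. The oligodendrocyte lineage list stood at 1930 CPM, led by Olig1 at 1267 CPM and Olig2 at 622 CPM, with Sox10 at only 2.53 CPM. The astrocyte list stood at 516 CPM, led by Aldoc at 305 CPM, with Gfap at 0.575 CPM. Endothelial cells, known for high Klf2 and Klf4, left little trace. Of 12 endothelial markers 9 were listed in the table, none reached 50 UMIs, and together they stood at 7.88 CPM. Of 11 microglia markers 5 were listed, at 3.56 CPM in all, and of 7 epithelial markers 2 were listed, at 0.747 CPM in all.

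The family was carried by 4 genes, and the pluripotency-linked members were scarce. Klf10, Klf6, Klf3 and Klf7 stood at 166, 156, 107 and 88.7 CPM. Klf13 and Klf9 were intermediate, at 41.2 and 26.6 CPM. Klf2, Klf5, Klf4 and Klf15 stood at only 5.17, 4.20, 4.14 and 3.56 CPM. These are levels of 3′ UMI counts, in which a transcript counts once whatever its length, so they were compared without dividing by length. Summed, Klf2, Klf4 and Klf5 had 235 UMIs or 13.5 CPM (11.8 to 15.4), which was 2.24% of the UMIs of the 10 members. The other 7 members had 10252 UMIs or 589 CPM (578 to 601), a sum 43.6 times as large (38.3 to 49.9).

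In the order of levels, Klf10 (160.3 to 172 CPM) was slightly above Klf6 (150.1 to 162), by a ratio of 1.07 (1.01 to 1.12). Klf6, Klf3 (102 to 112), Klf7 (84.3 to 93.2), Klf13 (38.2 to 44.3) and Klf9 (24.2 to 29.2) each differed from the next beyond counting error. The widest step in the order was between Klf9 and Klf2, a ratio of 5.14 (4.10 to 6.52). The ratios of Klf2 to Klf5, Klf5 to Klf4 and Klf4 to Klf15 were 1.23 (0.895 to 1.70), 1.01 (0.722 to 1.42) and 1.16 (0.815 to 1.66), and each of these intervals included 1. Among all 19144 genes, Klf10 ranked 1242 by UMIs and Klf4 ranked 10468.

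**Figure D1:**
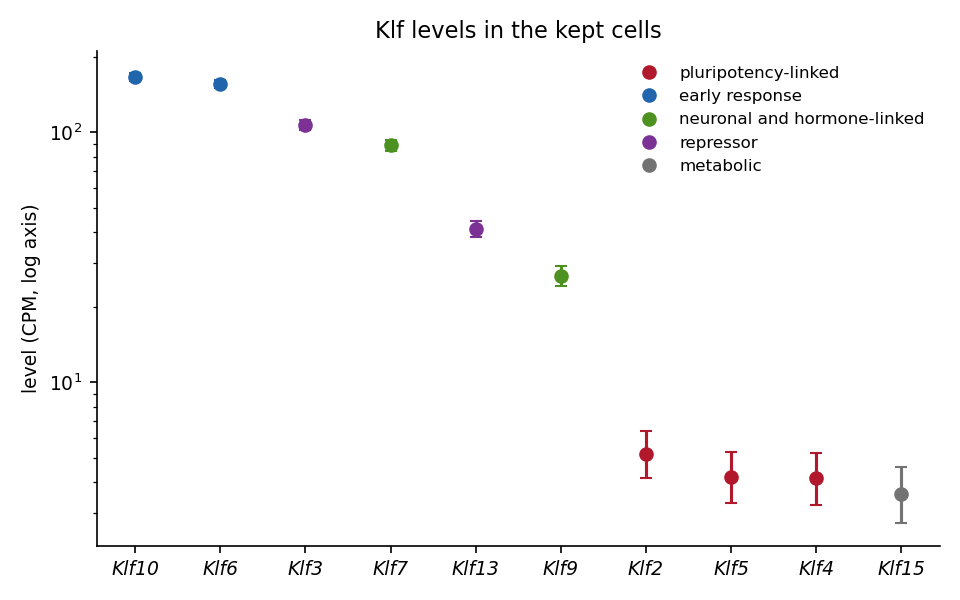
Level of each Klf gene in CPM (log axis) over the 3765 cells of the single sample, with points coloured by role and bars giving 95% Poisson intervals for counting error. Klf10 and Klf6 lie highest at 166 and 156 CPM, and Klf2, Klf5, Klf4 and Klf15 lie between 3.56 and 5.17 CPM.

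Klf4, one of the factors used to reprogram cells to pluripotency, lies on chromosome 4 (55527143 to 55532466, mm10). It had 72 UMIs in 67 cells, or 1.78% of cells (1.38 to 2.25). Klf2, which in endothelium responds to blood flow, lies on chromosome 8 (72319033 to 72321656) and had 90 UMIs in 87 cells, 2.31% (1.85 to 2.84). Klf5, a growth-promoting factor of epithelia and stem cells, lies on chromosome 14 (99298691 to 99315036) and had 73 UMIs in 66 cells, 1.75% (1.36 to 2.22). Each of these genes was thus rare, and 216 cells (5.74%, 5.02 to 6.53) had a UMI of any of them. UMIs of 2 of these genes were found in 4 cells, and no cell had all of them. Genes this rare would share few cells in any case, so this does not show that they avoid each other. Pooled over depth strata, the Klf4 level in cells with Klf2 had a ratio of 0.918 (0.224 to 3.76). That of Klf5 in cells with Klf4 was 0.971 (0.241 to 3.92), and both intervals included 1. No class of cells that should lack these transcripts could be set apart, so the share that free RNA gives was not measured.

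Most of their partners in the pluripotency network were close to 0. The exception was Sox2, which neural stem cells also use and which was counted among the neural progenitor markers, at 433 CPM. Of 17 other genes fixed for that network 8 were listed, with 31 UMIs over all 3765 cells. Esrrb, an orphan nuclear receptor of naive stem cells, accounted for 16 of these, and Pou5f1 (Oct4), Nanog, Sall4 and Tbx3 had 1 UMI each. The LIF pathway that is known to act above Klf4 was better represented. Of its 13 listed genes 12 were in the table and 10 had at least 50 UMIs, led by the phosphatase gene Ptpn11 at 107 CPM, Stat3 at 68.4 CPM and the kinase gene Jak1 at 62.8 CPM. Socs3, the feedback inhibitor that STAT3 induces, stood at 1.49 CPM. The 3 summed members, at 13.5 CPM, thus lay above the 8 listed partners without Sox2, at 1.78 CPM in all, and below Sox2 and Stat3.

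Cells with these genes were also searched for endothelial markers. Of the 87 cells with a Klf2 UMI, 0 had a UMI of any of the 9 markers (0% to 4.15%), and of the 3678 other cells 95 had one, or 2.58%, a share that lies within that interval. For Klf4 the numbers were 2 of 67 cells against 93 of 3698, and for Klf5 4 of 66 against 91 of 3699. Microglia markers were found in 3 of the 87 Klf2 cells (3.45%, 0.717 to 9.75) and 3 of the 67 Klf4 cells (4.48%, 0.933 to 12.5). They were found in 1.33% of the other cells in each case, which lies within both intervals. Epithelial markers were found in none of the 66 Klf5 cells and in 0.324% of the others, too few for none to be informative. Cells with a Klf2 or Klf4 UMI were also deeper, at medians of 5672 and 5958 UMIs against 3837.5 and 3849, and these shares were not matched for depth.

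Promoter sequences were examined for the members that matched the RefSeq table (build GRCm38.p6, the same assembly as mm10), which were 8 of the 10. Klf5 and Klf10 were not matched. The 250 bases before each RefSeq start, which for Klf2 and Klf6 lies downstream of the gene start given here from GENCODE, are shown for Klf2 and Klf4, as the scarce pluripotency-linked members, for Klf6, as the abundant early response member, and for Klf9, as the matched member that holds a STAT-type site. They lie at chr8:72318812-72319061 (plus strand), chr4:55532476-55532725 (minus strand), chr13:5861239-5861488 (plus strand) and chr19:23140976-23141225 (plus strand), and are written 5′ to 3′ along the gene. Capitals mark matches on either strand to the MEF2 box, the cyclic AMP response core TGACG, the AP-1 site TGANTCA, the STAT site TTCNNNGAA or the CCAAT box, and the boxes that Klf proteins read are left in lower case.
Klf2: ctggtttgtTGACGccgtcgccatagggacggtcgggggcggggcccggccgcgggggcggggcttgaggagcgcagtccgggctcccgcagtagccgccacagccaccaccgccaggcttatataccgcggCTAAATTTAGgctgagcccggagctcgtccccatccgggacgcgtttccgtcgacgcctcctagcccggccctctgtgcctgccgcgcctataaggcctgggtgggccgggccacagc
Klf4: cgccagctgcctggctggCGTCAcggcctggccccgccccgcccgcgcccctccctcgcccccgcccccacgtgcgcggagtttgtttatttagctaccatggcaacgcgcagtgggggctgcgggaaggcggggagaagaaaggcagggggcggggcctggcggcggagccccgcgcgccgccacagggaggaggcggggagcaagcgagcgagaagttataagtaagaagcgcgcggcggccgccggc
Klf6: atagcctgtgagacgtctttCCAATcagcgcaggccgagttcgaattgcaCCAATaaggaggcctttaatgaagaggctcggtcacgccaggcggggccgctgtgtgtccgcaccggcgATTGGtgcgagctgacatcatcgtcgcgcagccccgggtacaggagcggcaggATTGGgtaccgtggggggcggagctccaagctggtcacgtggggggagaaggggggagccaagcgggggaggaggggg
Klf9: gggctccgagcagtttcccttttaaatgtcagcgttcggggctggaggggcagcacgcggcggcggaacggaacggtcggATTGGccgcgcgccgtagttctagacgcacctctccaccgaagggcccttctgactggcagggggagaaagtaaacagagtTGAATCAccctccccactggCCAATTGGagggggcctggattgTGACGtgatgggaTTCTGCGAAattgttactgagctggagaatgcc

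Klf2 and Klf4 each hold a single TGACG match, which begins 241 and 232 bases before the start, and Klf2 alone of the 8 holds a MEF2 box, the recognition sequence of the MEF2 factors. That box was found in 2.92% of 32817 windows of the same length over all genes. Klf6 holds 4 CCAAT boxes, a motif present in 33.8% of all windows and in 4 of the 8 members. Klf9 holds an AP-1 site, a STAT site and a TGACG match. The STAT site was present in 7.01% of all windows and the AP-1 site in 6.75%, and of the 8 members Klf9 alone had either. The core TGACG, which is contained in the full site TGACGTCA, was present in 17.7% of all windows and in 5 of the 8 members. The CArG box bound by serum response factor, the full site TGACGTCA and the TATA box TATAAA were found in 1.47%, 1.55% and 12.4% of all windows, and none of the 8 members had a match. The boxes that Klf proteins themselves read were common, with CACCC in 6 of 8 members and in 52.0% of all windows, and GGGCGG in 7 of 8 and in 32.7%. The members' windows were GC-rich, from 59.2% to 78.4% against a median of 52.4% over all windows. These matches describe letters in a window and do not show binding.

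Klf10, the TGF-beta-inducible early gene, was the most abundant member over all cells together. It lies on chromosome 15 (38291463 to 38300706) and had 2893 UMIs in 1540 cells, 40.9% of cells (39.3 to 42.5). Klf6, an early response factor of growth and injury, lies on chromosome 13 (5861482 to 5870394) and had 2712 UMIs in 1479 cells, 39.3% (37.7 to 40.9). All 10 members were found in fewer cells than a spread in proportion to depth would give, a count with no share over all genes beside it. For the scarce members the gap was a few cells, such as 87 found against 88.4 expected for Klf2 and 56 against 61.2 for Klf15. For Klf10 and Klf6 alike, the cells with a UMI were 84.9% of that expectation, which for Klf10 was 1813 cells. The other members lay between 90.1% for Klf3 and 98.4% for Klf2. The squared deviation of a cell's Klf10 count from that expectation averaged 1.99 times the expected count, where 1 means spread by depth alone. The same measure was 1.44 for Klf6, 1.40 for Klf4, 1.31 for Klf7, 1.30 for Klf3 and 1.04 for Klf2, and Klf10 had the highest value of the 10 members. The Klf4 value rests on few cells, as 63 of its 67 cells had 1 UMI and a single cell had 3. Other genes of like level were not compared. Klf10, Klf6 and Klf3 each reached at most 10 UMIs in a cell. The TGF-beta early response list, fixed as the pathway Klf10 is named for, stood at 80.2 CPM over its 9 genes, with the feedback inhibitor gene Smad7 at 1.09 CPM.

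Among the remaining members, Klf3, a repressor that works through CtBP corepressors (chromosome 5, 64803388 to 64832901), had 1863 UMIs in 1216 cells, 32.3% (30.8 to 33.8). Klf7, a factor of neurite growth (chromosome 1, 64029447 to 64122282), had 1543 UMIs in 1066 cells, 28.3% (26.9 to 29.8). Klf13, a repressor that works through the SIN3A and histone deacetylase complex (chromosome 7, 63886351 to 63938915), had 716 UMIs in 574 cells, 15.2% (14.1 to 16.4). Klf9, which thyroid and glucocorticoid hormones induce (chromosome 19, 23141226 to 23168134), had 463 UMIs in 396 cells, 10.5% (9.56 to 11.5). Klf15, a metabolic regulator that glucocorticoids induce (chromosome 6, 90462576 to 90475238), had 62 UMIs in 56 cells, 1.49% (1.13 to 1.93).

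All 15 genes of the fixed list of Klf cofactors and ubiquitin ligases were transcribed, each with at least 50 UMIs. The share of all genes with that many UMIs in the kept cells was not formed. The deacetylase genes Hdac2 and Hdac1 stood at 310.1 and 135 CPM, the scaffold gene Sin3b at 240.1 CPM, and the corepressor genes Ctbp1 and Ctbp2 at 138 and 49.6 CPM. Wwp1, a ubiquitin ligase that degrades Klf2 and Klf5, stood at 103 CPM. Of 6 further Klf genes in the table, Klf16 at 12.5 CPM and Klf12 at 5.23 CPM had at least 50 UMIs, while Klf11 had 21 UMIs and Klf1, Klf14 and Klf8 had 5, 3 and 2. Klf1 is the member known from red blood cells. Of the related Sp factors, Sp3 and Sp1 stood at 62.3 and 52.5 CPM. Among 9 glucocorticoid response genes, the receptor gene Nr3c1 stood at 57.2 CPM and the target Fkbp5 at 27.1 CPM.

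Because the chance of seeing a UMI grows with depth, each cell was also thinned at random to 1000 UMIs, which left out 189 shallower cells and kept 3576. At that depth Klf10 was seen in 15.4% of cells (14.3 to 16.7), Klf6 in 12.7% (11.6 to 13.9), Klf3 in 10.7% (9.74 to 11.8) and Klf7 in 8.59% (7.69 to 9.55). With another random thinning Klf10, Klf6 and Klf3 were seen in 14.3%, 12.6% and 9.26% of cells, so the gaps between these neighbours depend on the draw. Klf13 was seen in 4.19% (3.56 to 4.90) and Klf9 in 2.99% (2.46 to 3.60). Klf2, Klf4 and Klf5 were each seen in 15 cells, 0.419% (0.235 to 0.691), and Klf15 in 9 cells. A UMI of any of the 3 pluripotency-linked members was seen in 1.26% of cells (0.919 to 1.68), against 43.2% (41.6 to 44.8) for the other 7.

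The next question was whether Klf levels follow immediate early genes. Klf10 did, with a level that was higher in each successive class of cells ordered by immediate early UMIs. The Klf3 values ran in the same order with smaller steps, each within counting error of the next, and those of Klf6 did not run in strict order. Cells were ordered by the UMIs of 21 immediate early genes per 1000 thinned UMIs, a list that held no Klf gene and in which Jun and Egr1 were the most abundant, at 265 and 223 CPM. In the 1758 cells with 0 such UMIs Klf10 stood at 135 CPM. In the 1053 cells with 1 it stood at 167 CPM, in the 459 cells with 2 at 207 CPM, in the 182 cells with 3 at 256 CPM, and in the 124 cells with 4 or more at 315 CPM (266 to 369). The Klf10 intervals of the classes with 0, 1 and 2 lay apart, and those of neighbouring classes from 2 upward overlapped. Klf6 stood at 141, 160, 186, 175 and 198 CPM in these classes, where the intervals of the last 3 overlapped. Klf3 stood at 96.6, 110.2, 120.3, 143 and 148 CPM. Each Klf3 interval overlapped the next, while that of the first class (90.1 to 103) lay below that of the last (116 to 187). Klf7 showed no such order, at 87.2, 87.5, 89.8, 84.4 and 113 CPM, and its intervals overlapped throughout.

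**Figure D2:**
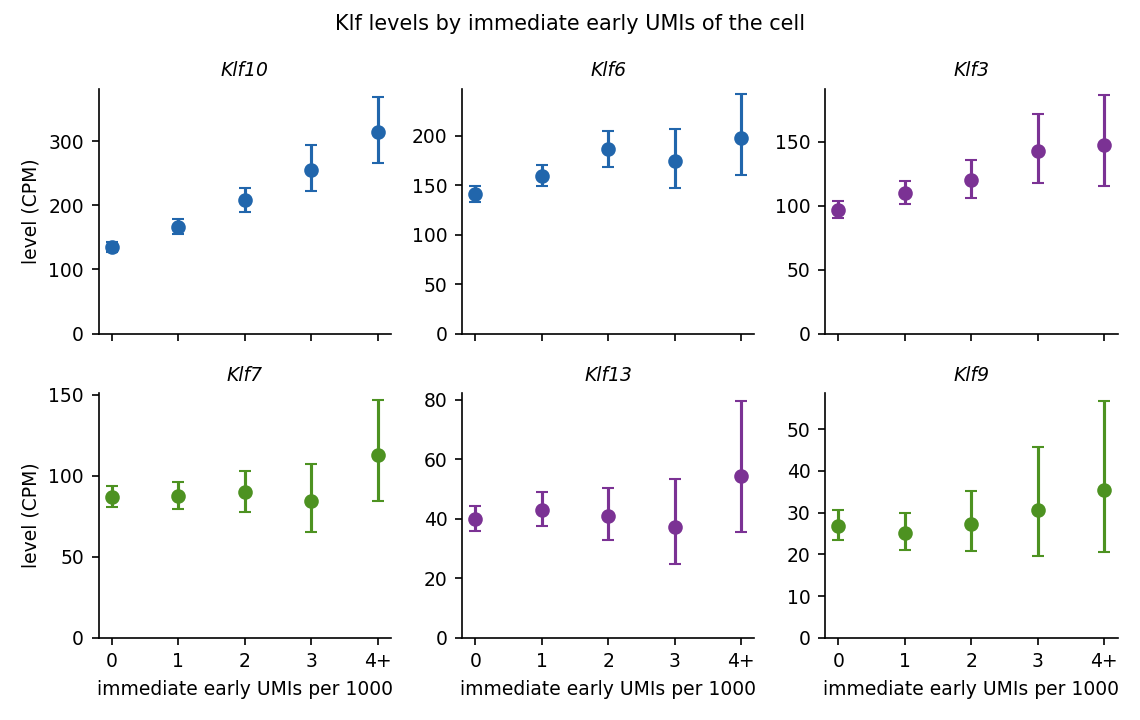
Level in CPM of the 6 more abundant Klf genes in cells with 0, 1, 2, 3 and 4 or more immediate early UMIs per 1000 thinned UMIs, with 95% Poisson intervals for counting error. Klf10 stands at 135 CPM in the first class and at 315 CPM in the last, whereas the intervals of Klf7 overlap in all classes.

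For a single comparison, the 765 cells with 2 or more immediate early UMIs were set against the 1758 cells with 0. Median depths were 3685 and 4057 UMIs. A ratio was called past the fold where it was at least 1.5, or at most its inverse, with the whole interval on the same side of 1. Klf10 stood at 233 against 135 CPM, a ratio of 1.73 (1.58 to 1.89), and it alone of the 9 members with at least 50 UMIs in these cells was past the fold. Over all 10438 genes with that many UMIs, 2.73% were past it, 1.92% upward and 0.814% downward, and Klf10 ranked 85 by its ratio. Klf3 had a ratio of 1.34 (1.19 to 1.504) and Klf6 of 1.31 (1.19 to 1.45), both with intervals above 1 but short of the fold. Klf7, Klf9 and Klf13 lay between 1.05 and 1.09 with intervals that included 1. The pluripotency-linked members had too few UMIs to place. Klf2 had 18 against 47 UMIs, a ratio of 0.951 (0.520 to 1.67), Klf4 18 against 30, at 1.49 (0.782 to 2.76), and Klf5 23 against 32, at 1.78 (0.997 to 3.15). The cut itself was narrow, since 1512 of the cells had exactly 1 or 2 such UMIs.

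The Klf10 ratio was 1.71 when pooled over 4 strata of depth, 1.67 over 3 strata of cell cycle genes, 1.71 over 4 strata of mitochondrial share and 1.72 over 4 strata of the nuclear RNA Malat1. It was 1.52 (1.32 to 1.74) with Jun and Egr1 left out of the list. With a broader list of 39 immediate early and stress genes it was 2.03 (1.83 to 2.26), and Klf6, at 1.64 (1.46 to 1.83), and Klf3, at 1.54 (1.34 to 1.76), were then past the fold as well, where 3.78% of all genes were past it upward. With cells thinned to 2000 UMIs the same 3 genes were past it, with Klf6 at 1.55 and Klf3 at 1.59. The Klf5 ratio ranged from 1.53 to 5.17 over all alternatives and was past the fold in 8 of them. Among these were the depth, cell cycle, mitochondrial and Malat1 strata, where it lay between 1.76 and 1.79. Without strata it was 1.78 with an exact interval of 0.997 to 3.15. The strata used approximate Mantel-Haenszel intervals, so these calls came with a change of interval and hardly any change of ratio.

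Klf10 was not related to all immediate early genes alike. Over the 16 immediate early genes found in at least 100 cells, the Klf10 level was compared between cells with and without a UMI of each gene, pooled over 4 strata of depth. It was 1.76 times as high (1.63 to 1.91) in the 1606 cells with Egr1, a zinc finger factor induced by growth factor signalling, and 1.74 times (1.58 to 1.92) in the 338 cells with Arc, a gene best known from active neurons. With Zfp36, which destabilises short-lived messages, the ratio was 1.52 (1.30 to 1.79). In cells with Ier5 it was 0.827 (0.742 to 0.920) and with Rhob 0.891 (0.796 to 0.999). Klf6 had another order. Its highest ratio was in cells with Jun, 1.40 (1.28 to 1.53), followed by Maff at 1.38 (1.19 to 1.60) and Fosl2 at 1.37 (1.18 to 1.60), none past the fold. In cells with Egr1 the Klf6 ratio was 1.11 (1.03 to 1.20), and this interval does not overlap that of Klf10. Klf3 reached 1.31 (1.09 to 1.57) with Maff and 1.19 (1.09 to 1.31) with Egr1.

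**Figure D3:**
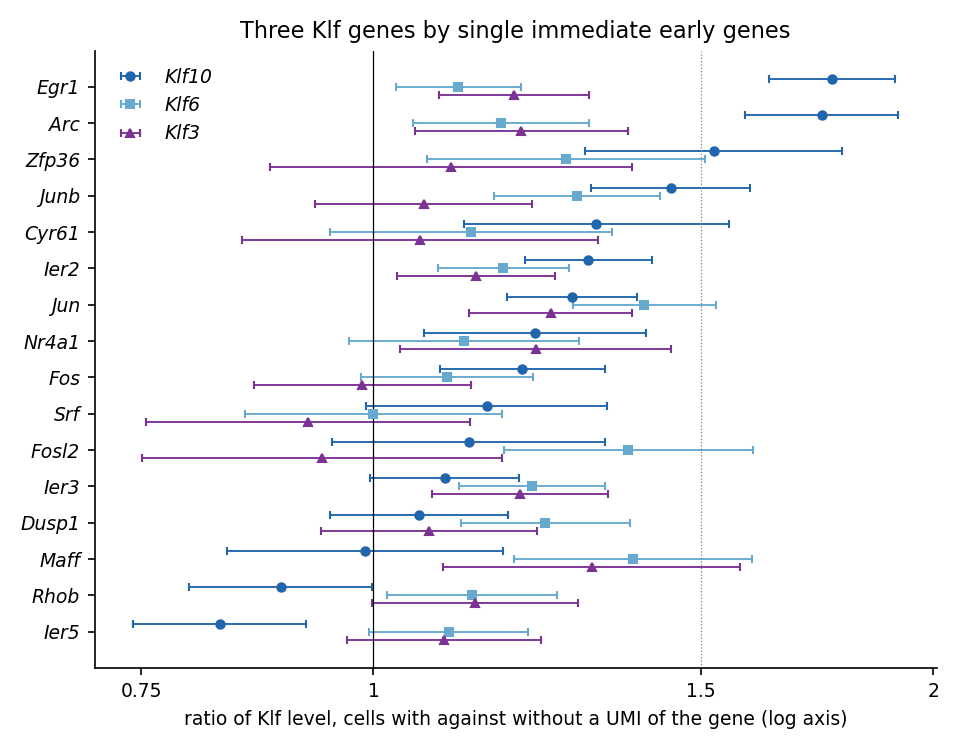
Ratio (log axis) of the Klf10, Klf6 and Klf3 levels between cells with and without a UMI of each of 16 immediate early genes, pooled over 4 depth strata, with 95% intervals for counting error, a solid line at 1 and a dotted line at 1.5. Klf10 reaches 1.76 with Egr1 and 1.74 with Arc, where Klf6 stands at 1.11 and 1.17.

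The genes most like each abundant member, ranked by the lower bound of the same kind of ratio among 8304 genes with at least 200 UMIs, differed between members. For Klf10 they were Arc at 2.80 (2.27 to 3.45), Rasl11a at 1.97, the stimulus-induced repressor gene Bhlhe40 at 1.98, Egr1 at 1.77 and Trib1 at 1.959. For Klf6 they were Grasp at 2.10 (1.57 to 2.82), 2900026A02Rik at 1.93, Hbegf, a growth factor of the EGF family, at 1.45, the nuclear receptor gene Rorb at 1.496 and Tnfrsf12a at 1.44. For Klf3 they were Hist1h1e at 1.63, Hbegf at 1.33, Ier3 at 1.40, Cdc42ep2 at 1.55 and Jun at 1.29. Klf7 had Gm26649 at 2.17, the non-coding RNA Meg3 at 1.71, Pik3r3 at 1.45, Pla2g7 at 1.59 and Ier3 at 1.44. Klf9 had Gpx3 at 2.24 (1.71 to 2.93), Sparcl1 at 1.93, Clic5 at 1.87 and Chl1 at 1.93. Klf13 had the Notch target Hes5 at 1.59 (1.39 to 1.81), Tmem17 at 1.81, Bora at 1.58, Shcbp1 at 1.52 and the mitotic kinase gene Aurka at 1.44. These are the extremes of a ranking of sparse counts and were given no test.

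Cell cycle genes divided the family in another way. Klf7, Klf10 and Klf3 were lower in cells rich in G2 and M phase messages, and Klf13 was not. The 847 cells with 14 or more UMIs of 52 G2/M genes per 1000 were set against the 1116 cells with 3 or fewer. Klf7 stood at 65.1 against 111 CPM, a ratio of 0.586 (0.509 to 0.673), Klf10 at 121 against 189.8 CPM, a ratio of 0.639 (0.576 to 0.709), and Klf3 at 86.1 against 132 CPM, a ratio of 0.651 (0.574 to 0.737). These 3 of the 7 members with at least 50 UMIs were past the fold, all downward, and 0 were past it upward. Over 10041 genes 12.4% were past it downward, 8.23% upward and 20.6% in either direction. The median ratio of the 10 members was 0.819 and that of all genes tested was 0.949. Klf9 had a ratio of 0.726 (0.566 to 0.929) and Klf6 of 0.825 (0.745 to 0.913), both short of the fold. Klf13 stood at 48.0 against 39.0 CPM, a ratio of 1.23 (1.01 to 1.497), and Klf2 had 35 against 21 UMIs, a ratio of 1.58 (0.895 to 2.86).

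The 2 sets of cells also differed in depth and RNA composition. Median depth was 4915 UMIs in the G2/M-high and 3740 in the G2/M-low cells, the median mitochondrial share 2.58% and 3.29%, and Malat1 2809 and 3628 CPM. Within 4 strata of mitochondrial share the ratios were 0.613 for Klf7, 0.708 for Klf10 and 0.674 for Klf3, the last 2 no longer past the fold. Within 4 strata of depth they were 0.544, 0.659 and 0.659, and within 4 strata of Malat1 0.607, 0.655 and 0.636. Without the deepest 5% of cells, where doublets would be expected, Klf10 was at 0.704 and Klf3 at 0.677, again short of the fold.

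**Figure D4:**
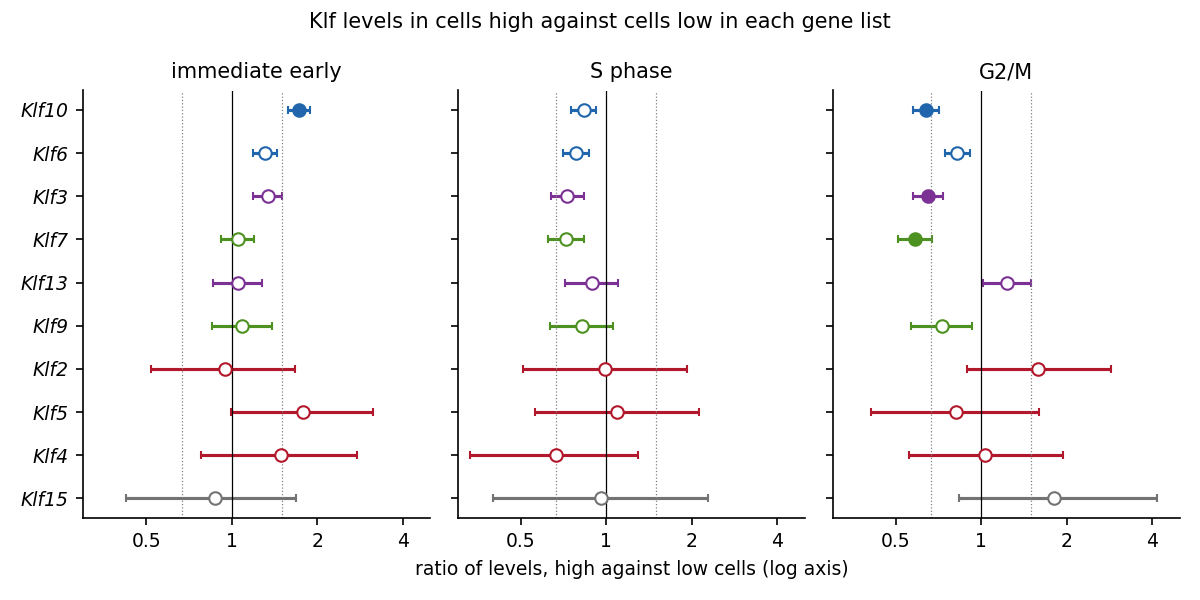
Ratio (log axis) of each Klf level between cells high and cells low in immediate early, S phase and G2/M genes, with 95% intervals for counting error, filled points where the ratio is past the fold, and dotted lines at 1.5 and its inverse. Klf10 is past the fold upward in the first panel at 1.73, and Klf10, Klf3 and Klf7 are past it downward in the last.

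For S phase no member was past the fold, while 17.6% of 9869 genes were, 8.57% downward and 9% upward. The 841 cells with 7 or more UMIs of 43 S phase genes per 1000 were set against the 1060 cells with 1 or 0. Klf7 had a ratio of 0.720 (0.622 to 0.832), Klf3 0.729 (0.639 to 0.831), Klf6 0.783 (0.703 to 0.870) and Klf10 0.831 (0.749 to 0.922). All 4 intervals lay below 1. Klf9 and Klf13 had ratios of 0.818 (0.632 to 1.06) and 0.887 (0.716 to 1.10). Klf7 was past the fold with another random thinning, at 0.650, and with cells thinned to 2000 UMIs, at 0.624.

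Both lists were then combined by splitting cells at the median of each. Klf10 was at 198 CPM in the 1291 cells low in both lists, 165 CPM in the 630 cells high in S phase genes only, 148 CPM in the 1049 cells high in both and 136 CPM in the 606 cells high in G2/M genes only. The summed level of the immediate early genes ran in the same order, at 992, 845, 775 and 717 CPM. Klf7 stood at 116, 94.4, 70.6 and 68.0 CPM, and Klf3 at 134, 104, 94.7 and 88.2 CPM, again in that order. Klf6 had a single step, from 187 CPM in the cells low in both to 141, 141 and 143 CPM in the others. Klf13 stood at 40.4, 37.6, 43.6 and 41.5 CPM, with intervals that overlapped throughout. Of the pluripotency-linked members, Klf5 had 28, 13, 26 and 6 UMIs, or 5.29, 4.40, 4.50 and 1.87 CPM.

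**Figure D5:**
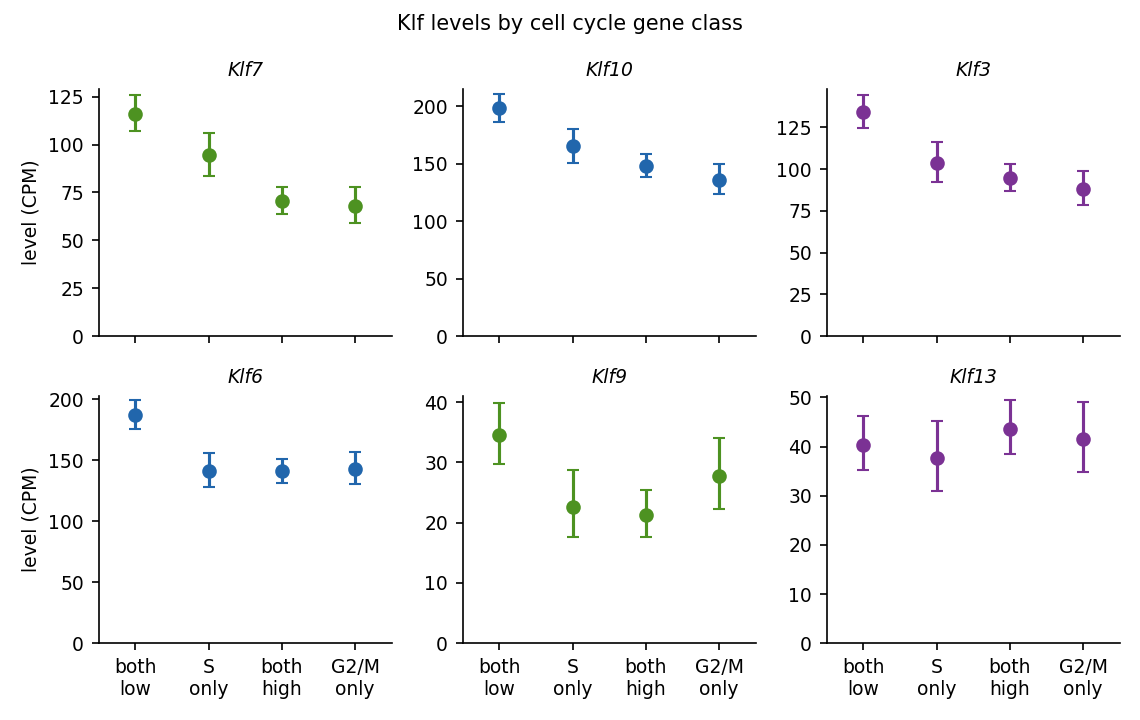
Level in CPM of 6 Klf genes in cells low in both cell cycle lists, high in S phase genes only, high in both, and high in G2/M genes only, with 95% Poisson intervals for counting error. Klf7, Klf10 and Klf3 are highest in the cells low in both, at 116, 198 and 134 CPM, and Klf13 stays between 37.6 and 43.6 CPM.

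The immediate early ratio of Klf10 was above 1 within each of these classes. It was 1.57 (1.35 to 1.83) in cells low in both lists, 1.82 (1.47 to 2.25) in those high in S phase genes only, 1.90 (1.61 to 2.24) in those high in both and 1.35 (1.04 to 1.76) in those high in G2/M genes only. The Klf6 ratio was 1.43 (1.23 to 1.67), 1.34 (1.05 to 1.71), 0.905 (0.741 to 1.10) and 1.66 (1.31 to 2.11) in the same classes, with an interval that included 1 in the cells high in both. The Klf3 ratio lay between 1.21 and 1.38 in all 4, with an interval that included 1 in the cells high in G2/M genes only. A difference between classes was not tested.

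Depth and RNA composition moved with some members. Cells were ranked by depth into 4 equal groups. From the shallowest to the deepest group, at median depths of 1521.5 and 7978 UMIs, Klf10 went from 222 to 145 CPM, a ratio of 0.655 (0.579 to 0.743), and Klf6 from 136 to 159.5 CPM, a ratio of 1.17 (1.01 to 1.37). The order of these genes thus turned with depth. In the deepest group Klf6 (151 to 168 CPM) stood above Klf10 (137 to 154 CPM), with intervals that overlapped. Klf13 had a ratio of 0.708 (0.552 to 0.917) over the same groups, while the ratios of Klf3 and Klf7 had intervals that included 1. Between the lowest and the highest of 4 equal groups by mitochondrial share, Klf7 went from 71.2 to 115 CPM, a ratio of 1.61 (1.39 to 1.87), and Klf10 from 134 to 209.7 CPM, a ratio of 1.56 (1.40 to 1.74). Klf9, Klf3 and Klf6 also rose, at ratios of 1.48 (1.12 to 1.96), 1.26 (1.10 to 1.45) and 1.17 (1.05 to 1.31). For Klf13 the ratio was 1.05 (0.842 to 1.31). Klf2 had 31 and 9 UMIs in these groups, a ratio of 0.431 (0.180 to 0.927). Beyond the strata given above, the part of these shifts in the results was not tested.

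The members were also compared over the other fixed lists. Over 22 lists, 220 ratios were formed, of which 11 were past the fold upward and 4 downward. Of the 171 with at least 50 UMIs 7 were past it upward and 4 downward, and over all genes and lists at that minimum 3.29% were past it upward and 2.69% downward. Neither count of members lay far from those shares. Most of the calls outside the immediate early and G2/M lists came from members with few UMIs. Klf15 stood at 6.43 CPM in the 602 cells rich in hypoxia and glycolysis genes and 2.21 CPM in the 1619 poor in them, from 18 and 17 UMIs, a ratio of 2.91 (1.42 to 6.01). It stayed past the fold with another thinning, a deeper thinning and depth strata, at 2.95 to 3.60. Klf4 stood at 6.97 CPM in the 809 cells rich in p53 target genes against 3.54 CPM in the 1416 poor in them, from 27 and 24 UMIs, a ratio of 1.97 (1.09 to 3.56). It stayed past the fold under the same settings, at 1.97 to 2.33. These settings reuse the same cells and UMIs, so they do not replicate either call. Over all genes with at least 50 UMIs, a minimum that Klf15 did not reach here, 2.93% were past the fold upward for the hypoxia list and 2.08% for the p53 list. In cells rich in amino acid and endoplasmic reticulum stress genes Klf4 had 31 against 21 UMIs, a ratio of 2.58 (1.44 to 4.73) where 0.907% of all genes were past the fold upward, but 1.65 (0.890 to 3.05) with another thinning. Klf4 for the nuclear RNA list, at 2.88 (1.24 to 7.03), and Klf15 for the neural progenitor list, at 2.62 (1.23 to 5.92), were past the fold in 2 of 3 settings. So was Klf4 for the oligodendrocyte lineage list, downward at 0.409 (0.143 to 0.962). Klf13 for the nuclear RNA list, at 1.51 (1.20 to 1.88), was past it in 0 of 3. In the 30 cells with UMIs of 3 or more neuron markers, a class chosen after the data were seen, Klf7 stood at 141 CPM (82.1 to 226) from 17 UMIs, against 88.3 CPM (84.0 to 92.9) in the other cells, so the intervals overlapped.

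Members were also compared with each other. Over the 30 ordered pairs of the 6 more abundant members, the ratio of one gene's level between cells with and without a UMI of the other, pooled over depth strata, ranged from 0.820 to 1.33 with a median of 1.07. Of these pairs 0 were past the fold, where 2% of all genes were, and at so low a share 0 of 30 says little. There were 9 intervals above 1 and 3 below, counts for which no share over all genes was formed. Each pair enters in both directions. Klf10 with Klf7, Klf10 with Klf3 and Klf6 with Klf3 lay above 1 both ways, and Klf10 with Klf13 below 1 both ways. The highest was Klf3 in cells with Klf10, at 1.33 (1.21 to 1.46), followed by Klf7 in cells with Klf10, at 1.30 (1.18 to 1.44). Klf6 and Klf10, the early response members, were found together in 696 cells, yet the Klf10 ratio in cells with Klf6 was 0.995 (0.922 to 1.07). The lowest was Klf13 in cells with Klf10, at 0.820 (0.705 to 0.955). Of all 90 ordered pairs 5 were past the fold, each with a member of few UMIs. No share over all genes was formed for this wider set, so that count has no background beside it. The Klf5 and Klf9 pair enters it in both directions, from the same 15 cells with both genes. They were Klf5 in cells with Klf9 at 1.97 (1.16 to 3.34) and Klf9 in cells with Klf5 at 1.65 (1.03 to 2.64), Klf5 in cells with Klf3 at 1.79 (1.11 to 2.88), Klf4 in cells with Klf3 at 0.528 (0.314 to 0.886) and Klf13 in cells with Klf15 at 1.54 (1.03 to 2.30). In all, 1965 cells had UMIs of 2 or more members and 1001 cells of 3 or more.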

How the data were processed

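Polyadenylated RNA of dissociated neurospheres was captured by Drop-seq with a planned 60000 reads per cell, per the labels' protocols; the series text speaks of nuclei. The authors deposited a table of whole-number UMI counts for 19144 genes and 4000 barcodes, without normalization. The submitters' processing notes name mm10; no source used here names the aligner, the counting program or the choice of barcodes. Nothing maps barcodes to the 2 samples.

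Barcodes with fewer than 500 genes or over 10% mitochondrial counts were left out (235, with 3765 kept). No doublet caller was run, and an alternative left out the deepest 5% of cells. Levels are summed counts scaled to CPM with exact Poisson intervals, shares have exact Clopper-Pearson intervals, ratios have exact conditional binomial intervals, and stratified ratios are Mantel-Haenszel rate ratios, all at 95%. Mantel-Haenszel intervals are approximate, not exact. With equal cell weight, the interval of a ratio was the main one scaled to the new ratio. Cells were classed on counts thinned to 1000 UMIs, as high above the 75th percentile of a list's UMIs and low at or below the 25th, and members were measured in all UMIs of those cells. Counts over all genes took those with at least 50 UMIs in the compared cells. The calculations were tested on simulated data. Gene positions come from the GENCODE annotation of mm10. For each member found in at least 100 cells, the 5 genes most like it were named, apart from a result that is not reported here. The members and lists were chosen with earlier results of these data known. Alternatives changed filters, weighting, thinning, seed, strata and gene lists; the mitochondrial and Malat1 strata, the list without Jun and Egr1 and the settings for the other lists were chosen after seeing the data. The software was Python 3.11.15 with numpy 2.4.6, scipy 1.17.1, pandas 2.3.3 and, for figures, matplotlib 3.10.9.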

Additional observations from a re-analysis of the deposited data

Results flagged for a closer look

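The 235 barcodes left out by the filters, with 195947 UMIs in all, also held Klf transcripts in more than the 3 counts set as a limit. Klf10 had 55 UMIs there, Klf7 45, Klf6 39, Klf13 10, Klf3 8 and Klf9 6. Klf7 stood at 229.7 CPM (168 to 307) against 88.7 CPM in the kept cells, a ratio of 2.59 (1.88 to 3.48). Klf10 had a ratio of 1.69 (1.27 to 2.20), while Klf3 was lower, at 40.8 against 107 CPM, a ratio of 0.381 (0.164 to 0.753). The intervals of the Klf6, Klf9 and Klf13 ratios included 1.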

How the results depend on the processing

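With every cell given equal weight, the summed level of the 7 other members was 618 CPM in place of 589 CPM, and that of Klf10 was 189 CPM. With cells thinned to 2000 UMIs, 2.52% of cells had a UMI of Klf2, Klf4 or Klf5 and 65.1% had one of the others, and without thinning 5.74% and 79.8%. In immediate-early-high cells 2 members were past the fold, with Klf5 joining Klf10, under equal cell weight and with 4 strata of depth, 3 of cell cycle genes, 4 of mitochondrial share or 4 of Malat1. The equal-weight interval was the main interval scaled to the new ratio, so it did not measure the counting error of that weighting. In the strata the Klf5 ratio stayed near the 1.78 of the main comparison, and the interval was of another kind. Klf5 was also past it with another seed, without the deepest 5% of cells and when counted in thinned cells, but with under 50 UMIs in the compared cells, which kept it out of the count. There were 3 members past it with cells thinned to 2000 UMIs and with the broad list. The Klf10 ratio was past the fold in every alternative run, from 1.52 to 2.10. In S-high cells 1 member, Klf7, was past the fold downward with another seed and with cells thinned to 2000 UMIs. In G2/M-high cells 1 member, Klf2, was past it upward with cells thinned to 2000 UMIs, at 2.05 (1.10 to 4.02), and 1 member, Klf7, was past it downward in place of 3 without the deepest 5% of cells and within strata of mitochondrial share. Klf7 was past it in every alternative of that comparison, from 0.510 to 0.613. Klf2 in cells rich in oligodendrocyte lineage genes had a ratio of 2.12, which turned to 0.946 with another seed. The causes of these shifts were not tested. Members with under 100 UMIs gave ratios that moved with the random thinning, and depth limits what can be said of them.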
